A study of Mus musculus with 16 samples.

Results

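The genes described here encode the machinery of the chemical synapse: proteins of the synaptic vesicle and of the membrane it fuses with, and proteins of the postsynaptic density. They were taken from a list of 41 genes, and a gene counted as measured where at least 1 probe set carried its symbol and no other. By that rule 35 of the 41 were measured, by 46 probe sets, out of 8251 genes and 12422 tested probe sets on the array. Of the measured genes, 28 of 33 listed were grouped as presynaptic and 7 of 8 as postsynaptic. Syn1, Synj1, Amph, Camk2g, Sv2b and Nrxn3 had no such probe set and are not analysed here. Each gene is represented by the probe set with the highest mean over the 16 arrays, and the other probe sets of the 10 genes with several are given as a check.

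Expression was measured on 1-colour Affymetrix oligonucleotide arrays in total RNA from 2 tissues at 2 sites. The retina RNA was a pool from 350 adult C57/B6 mice and the cortex RNA a pool from 19 mice at postnatal day 1. The cortex donors are called C57/B6 in the descriptions of the samples but Swiss-Webster in the design text, so the strains may or may not differ. No genotype, transgene or drug treatment is named, and the labels distinguish the pools by tissue, age, number of mice and possibly strain. A first site ran 5 arrays for each tissue and the one the labels call site 2 ran 3 for each, all on aliquots of these pools. The stated aim was to measure how far expression values vary between replicates and between sites. Because every array of a tissue received the same pool, the p-values reflect technical spread and no spread between animals. Organ, age and strain cannot be told apart as the source of any difference between the tissues.

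At a chemical synapse, vesicles filled with transmitter dock at the active zone and fuse when calcium enters the terminal. Fusion is driven by SNARE proteins: syntaxins and SNAP-25 on the plasma membrane zip together with VAMP proteins on the vesicle. Synaptotagmins sense the calcium, complexins clamp and promote fusion, and NSF with its SNAP adaptors pulls the spent SNARE complexes apart. On the other side, scaffolds hold receptors in place, and calcium acts there through calmodulin, its kinase CaMKII and the phosphatase calcineurin. Photoreceptors and bipolar cells of the retina release transmitter continuously at ribbon synapses, which are known to use syntaxin 3 in place of syntaxin 1. Synapses of the cortex are conventional, and most of them form after birth.

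Deposited array medians ran from 45.7 to 216, so values are given as scaled intensities, in which the median of each array is set to 100. The level of the brightest of 13 control probe sets with no added target served as a floor for each array. Of the 35 genes, 28 lay above the floor on all 16 arrays, 0 lay below it on every array, and 29 had a mean signal above the median of all probe sets. Cortex replicate 2 of site 2 was the dimmest array, and its mean correlation with the other arrays of its group was 0.943, against 0.965 to 0.991 for the rest. Tissue calls of these genes at site 2 that changed without that array are therefore given with and without it. Sizes of other site 2 differences, such as those of Camk2b and Ppp3ca, are given only with it. Each tissue carried its own markers: the summed scaled intensity of 9 rod genes was 48232 to 56168 in retina and 94.1 to 133 in cortex at the first site, and that of 3 cortical neuron genes was 138 to 221 in retina and 3175 to 3884 in cortex. In bulk RNA, fewer cells of a type and less RNA per cell cannot be told apart.

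The central comparison asks which synaptic transcripts differ between adult retina and newborn cortex. At the first site 28 of the 35 genes passed the threshold, an adjusted p under 0.05 from limma over all probe sets, with 16 higher and 12 lower in retina. In the same comparison 47.1% of all probe sets passed (21.9% higher, 25.2% lower), and 68.1% of those above the median signal. Among the 29 synaptic genes above that median 24 passed. At site 2 25 genes passed, 14 higher and 11 lower, where 32.5% of all probe sets (16.7% higher, 15.9% lower) and 47.6% of the brighter ones passed. Of the brighter synaptic genes 21 of 29 passed there. Retina and cortex arrays were fully apart for 25 of the 35 genes at the first site (38.8% of all probe sets) and for 26 at site 2 (47.5%). Without cortex replicate 2 of site 2, 29 genes passed at that site, 16 higher and 13 lower. Over all probe sets the site 2 count was 4043, and it ran from 3062 to 5946 with single arrays left out. The rise from 25 to 29 is therefore not shown to be particular to these genes. Without centring of the arrays, 8 of these genes passed at site 2: Stx1a, Stx3, Vamp1, Nsf, Syt2, Syp, Sncb and Nrgn. Every other site 2 call of these genes was lost under that setting.

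More presynaptic genes were called higher than lower in retina, and more postsynaptic genes lower than higher. The difference between the 2 sides of the synapse was not tested. Among the 28 presynaptic genes, 15 were higher in retina and 7 lower at the first site, and 13 were higher and 6 lower at site 2. Among the 7 postsynaptic genes, 1 was higher and 5 were lower at each site. Differences here are retina minus cortex on the log2(intensity + 16) scale, and the added 16 makes changes of dim probe sets look smaller. The median difference was 0.30 for the presynaptic genes and -0.76 for the postsynaptic genes at the first site, and 0.54 and -0.96 at site 2. Over all probe sets the median was -0.05 and -0.02. Ppp3ca acts on both sides of the synapse and Nptx1 is secreted. Without them 4 of the 5 remaining postsynaptic genes were lower in retina at each site, with medians of -1.04 and -0.96. The 4 were not the same genes. Nrgn, Camk2b and Homer1 were called at both sites, Camk2a only at the first and Dlg4 only at site 2. Camk2a lay near the floor, and the site 2 calls of Homer1 and Dlg4 were lost without most single arrays of that site. The presynaptic genes did not move as a block, since each of several families held members that went in both directions. Some of them, such as Stx4a, Vamp3, Napa and Rab3d, also serve cells other than neurons. The presynaptic summary was not repeated without such genes.

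**Figure D1:**
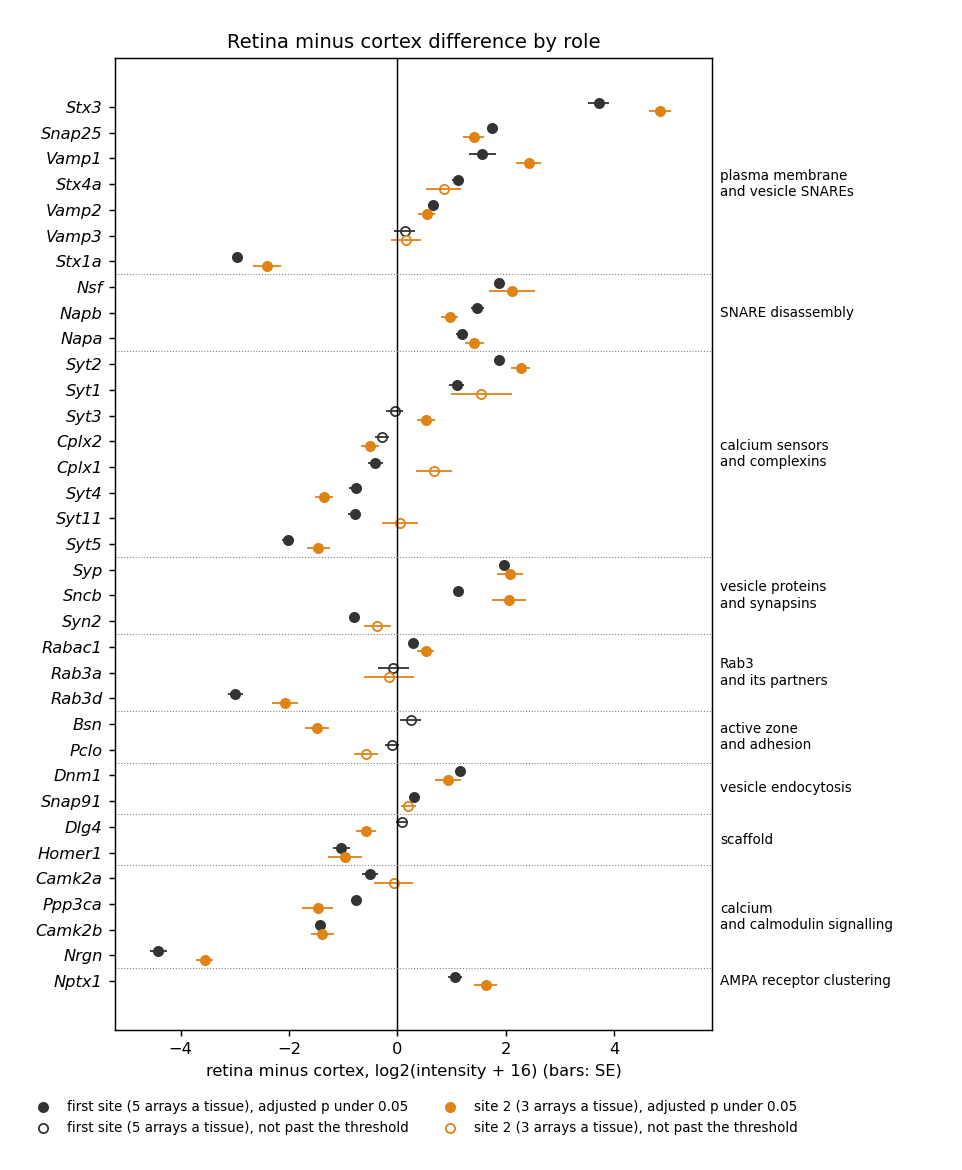
Retina minus cortex difference of the 35 synaptic genes, grouped by role, on the log2(intensity + 16) scale, with bars for the standard error and 1 marker for each site, filled where the adjusted p was under 0.05. The horizontal axis is the difference and the vertical axis lists the genes. Stx3 stands at 3.72 ± 0.19 and 4.85 ± 0.20, Nrgn at -4.41 ± 0.16 and -3.56 ± 0.16, and the SNARE disassembly genes all lie above 0.

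Markers of many cell types also differed between the tissues, but not those of every type. Of 5 endothelial markers 2 were higher and 2 lower in retina at both sites. Of 5 microglial markers 2 were lower at the first site and 0 passed at site 2. All 9 rod markers and 3 of 3 bipolar cell markers were higher in retina at the first site (9 of 9 and 2 of 3 at site 2). Other retinal cell types went the same way. Of 7 amacrine and horizontal cell markers 6 were higher in retina at both sites, as were 3 of 4 Mueller glia markers. Ganglion cell markers were higher for 5 of 5 genes in the first-site fit, while site 2 called 4 of them. All 7 markers of immature neurons and all 3 of cortical neurons were lower in retina at both sites, as were 6 of 7 of neural progenitors. The summed scaled intensity of the immature neuron markers was 4224 to 4762 in retina and 35032 to 43693 in cortex at the first site. Of 4 oligodendrocyte markers 0 passed at either site, with first-site sums of 385 to 468 in retina and 350.2 to 513 in cortex and with Mog and Cnp at or under the floor on all arrays. Lens markers (4 of 4) and pigment epithelium markers (3 of 4) were higher in retina, and red cell markers (3 of 3) were lower, at both sites. The part of any cell type in the synaptic differences was not tested.

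**Figure D2:**
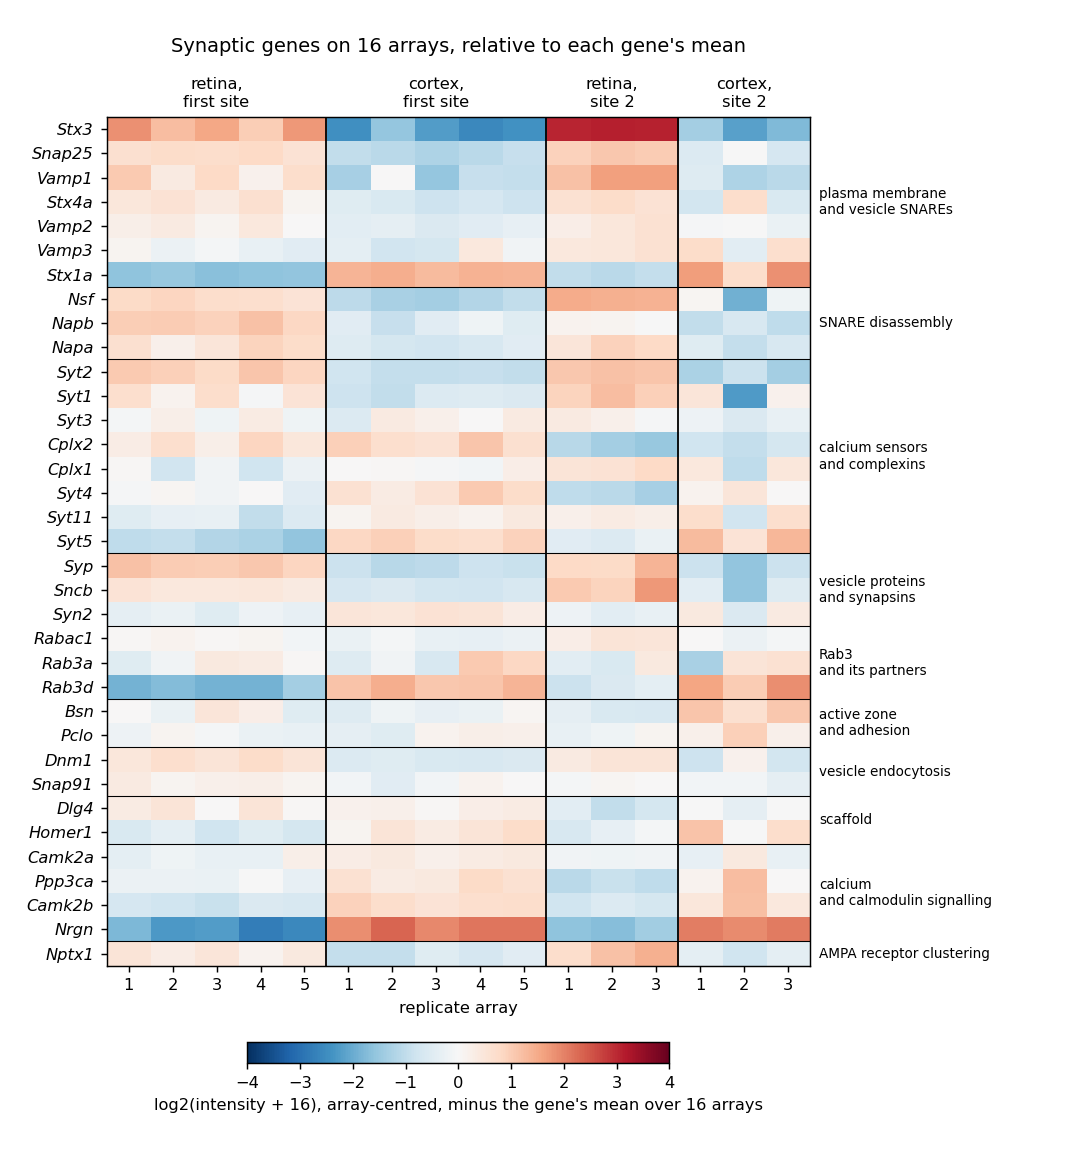
The 35 synaptic genes (rows, by role) on the 16 arrays (columns, by tissue, site and replicate). Colour is the array-centred log2(intensity + 16) minus the mean of the gene over the 16 arrays. Stx3 and Stx1a show opposite patterns over the arrays, and cortex replicate 2 of site 2 departs from its neighbours for genes such as Nsf, Syt1 and Pclo.

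The upstream sequences of 4 of these genes are given because the genes mark the 2 directions: Stx3 and Syp were higher in retina at both sites, Stx1a and Nrgn lower. The 250 bases before the annotated start are from RefSeq on GRCm38.p6, written 5′ to 3′ on the strand of the gene. Capitals mark matches on either strand to TAATCC (the core bound by photoreceptor homeobox factors), the E-boxes CAGCTG and CATCTG, the cAMP response element TGACGTCA, the GC box GGGCGG and the TATA box TATAAA.
Stx3 (chr19:11819404-11819653, minus strand): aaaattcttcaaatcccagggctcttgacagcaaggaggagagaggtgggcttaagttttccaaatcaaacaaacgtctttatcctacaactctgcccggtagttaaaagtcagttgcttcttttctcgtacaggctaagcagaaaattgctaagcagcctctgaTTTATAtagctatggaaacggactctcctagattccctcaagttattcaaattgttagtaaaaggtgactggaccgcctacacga
Stx1a (chr5:135023232-135023481, plus strand): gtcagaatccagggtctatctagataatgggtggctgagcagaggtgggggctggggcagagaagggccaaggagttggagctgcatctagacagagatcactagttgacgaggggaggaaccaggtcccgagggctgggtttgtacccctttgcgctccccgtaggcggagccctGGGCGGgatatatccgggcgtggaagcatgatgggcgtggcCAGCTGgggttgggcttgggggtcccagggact
Syp (chrX:7638330-7638579, plus strand): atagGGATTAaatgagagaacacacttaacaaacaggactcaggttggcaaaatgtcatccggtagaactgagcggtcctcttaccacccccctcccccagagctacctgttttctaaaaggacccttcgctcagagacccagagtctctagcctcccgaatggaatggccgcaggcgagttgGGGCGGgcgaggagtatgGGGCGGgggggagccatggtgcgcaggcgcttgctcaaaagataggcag
Nrgn (chr9:37552746-37552995, minus strand): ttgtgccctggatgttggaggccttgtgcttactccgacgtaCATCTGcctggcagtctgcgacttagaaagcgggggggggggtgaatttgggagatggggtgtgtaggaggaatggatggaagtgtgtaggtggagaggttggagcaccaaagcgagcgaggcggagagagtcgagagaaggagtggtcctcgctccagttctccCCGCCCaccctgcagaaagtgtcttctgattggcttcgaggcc
The Stx3 stretch held TATAAA on the opposite strand and no GC box, whereas those of Stx1a, Syp and Nrgn each held at least 1 GC box. Stx1a also held a CAGCTG and Nrgn a CATCTG, and Syp was the one of the 4 with a TAATCC. Of the measured genes, 27 had a promoter entry, with 34 promoters in all. The GC box was in 55.9% of these promoters and in 32.7% of all 32851, CAGCTG in 20.6% and 13.0%, and CATCTG in 11.8% and 14.4%. TAATCC was in 5.88% and 6.25%, TATAAA in 2.94% and 12.4%, and TGACGTCA in none of the 34 and in 1.55% of all. A match is a stretch of letters and no measured site of binding.

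The plasma membrane and vesicle SNAREs held the largest difference toward retina of all 35 genes, and the syntaxins divided. At the first site 5 of these 7 genes were higher in retina and 1 lower, and at site 2 4 were higher and 1 lower. Stx3, the syntaxin of ribbon synapses, gave scaled intensities of 675, 462, 569, 388 and 669 on the first-site retina arrays and 21.8, 52.5, 28.4, 19.5 and 24.1 on the cortex arrays. At site 2 Stx3 gave 1648, 1726 and 1695 in retina and 65.7, 17.3 and 47.6 in cortex. Every retina array lay far above every cortex array, and cortex was near the floor, above it on 3 of 5 first-site arrays and 2 of 3 site 2 arrays. With values under the floor raised to it, Stx3 was 18.2-fold and 43.1-fold higher in retina. The differences were 3.72 ± 0.19 (SE; adjusted p = 9.2e-11, limma) and 4.85 ± 0.20 (adjusted p = 1.1e-07). The chosen probe set carries a suffix by which the maker of the arrays marks special probe selection, but 2 plain probe sets for Stx3 were also higher in retina, by 2.90 ± 0.23 and 2.08 ± 0.14 at the first site and by 4.36 ± 0.16 and 1.61 ± 0.21 at site 2. The folds of these sets were 9.21 and 4.86 at the first site and 32.9 and 3.29 at site 2, so the size of the Stx3 difference depends on the probe set.

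Stx1a, the syntaxin of conventional synapses, ran the other way. It gave 98.9, 107, 94.7, 98.3 and 100.4 in first-site retina and 870.5, 959, 821, 879 and 855 in cortex. Its values at site 2 were 160.0, 149.8 and 163 in retina and 1054, 625 and 1138 in cortex. No retina array reached any cortex array, and the lowest cortex value was that of replicate 2 of site 2. Stx1a differed by -2.96 ± 0.07 (adjusted p = 7.1e-15, limma) and -2.40 ± 0.26 (adjusted p = 6.0e-05), an 8.78-fold and a 5.76-fold lower level in retina. Stx4a, a syntaxin of many cell types, was higher in retina at the first site by 1.12 ± 0.11. At site 2 it did not pass (0.85 ± 0.32, adjusted p = 0.07), with cortex values of 149, 489 and 160.3. Without replicate 2 of that group it passed, at 1.31.

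Snap25, the second plasma membrane SNARE, was higher in retina at both sites. Retina averaged a scaled intensity of 4559 ± 303 and cortex 1357 ± 102 (SD, n = 5 each) at the first site, a difference of 1.75 ± 0.07 (adjusted p = 6.6e-12, limma). At site 2 the difference was 1.41 ± 0.19 (adjusted p = 2.6e-04). Of the vesicle SNAREs, Vamp1 was higher by 1.56 ± 0.25 and 2.42 ± 0.23, and Vamp2 by 0.65 ± 0.08 and 0.54 ± 0.16. The other Vamp2 probe set was also called higher at both sites, by 0.66 ± 0.13 and 1.47 ± 0.45. Vamp1 was at or under the floor on 2 of 5 and 1 of 3 cortex arrays. Its other probe set, also dim, passed at neither site. The site 2 call of Vamp2 was lost when retina replicate 2, retina replicate 3, cortex replicate 1 or cortex replicate 3 was left out. Vamp3, which serves exocytosis in most cell types, passed at neither site (0.13 ± 0.19 and 0.16 ± 0.28), and its arrays overlapped.

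**Figure D3:**
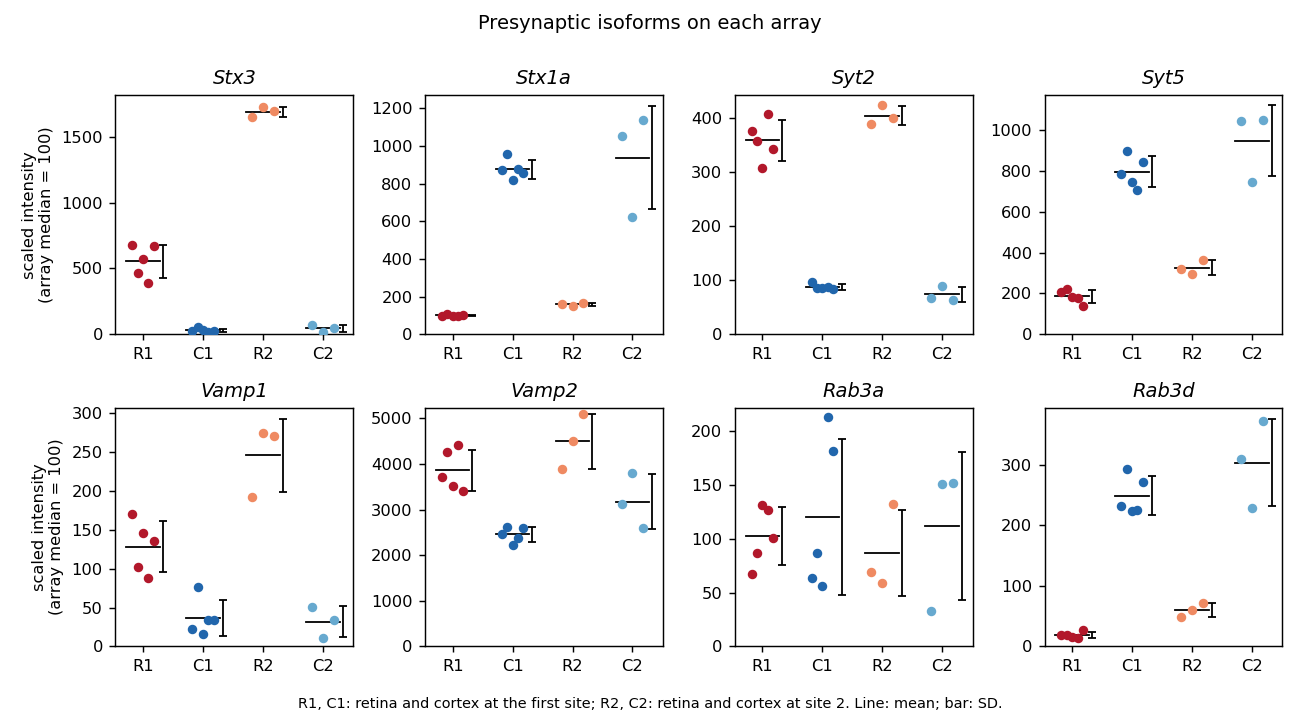
Scaled intensity (vertical axis, array median 100, from 0) of 8 presynaptic genes on each array, by tissue and site, with 1 point for each array, a line for the group mean and a bar for the SD. Stx3 and Stx1a separate the tissues in opposite directions: Stx1a reached at most 107 in first-site retina and at least 821 in first-site cortex.

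The 3 genes of SNARE disassembly were all higher in retina at both sites. Nsf, the ATPase that separates SNARE complexes, gave 1501, 1689, 1472, 1489.8 and 1364 in first-site retina and 441, 372, 352, 402 and 458 in cortex. At site 2 Nsf gave 2569, 2529 and 2467 in retina and 946, 254 and 767 in cortex. The tissues did not overlap at either site, and cortex replicate 2 of site 2 was the lowest array there. Nsf was higher by 1.87 ± 0.09 (adjusted p = 2.1e-11, limma) and 2.12 ± 0.42 (adjusted p = 0.0031), the latter falling to 1.49 without that array. Napb, the neuronal adaptor beta-SNAP, gave 1033, 1077, 1003, 1229 and 959.7 in first-site retina and 382, 277, 387, 468 and 371 in cortex. Its site 2 values were 575, 571 and 522 in retina and 254, 372 and 242 in cortex. Again the tissues were apart, but retina RNA read lower at site 2 than at the first site. The differences of Napb were 1.48 ± 0.11 and 0.96 ± 0.16 (adjusted p = 1.3e-08 and 9.1e-04), and its second probe set was higher in retina at both sites too. Napa, the broadly expressed alpha-SNAP, was higher by 1.20 ± 0.11 and 1.42 ± 0.18.

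The calcium sensors divided like the syntaxins. Of the 6 synaptotagmins, Syt1 and Syt2, the fast sensors for release, were higher in retina at the first site, and Syt4, Syt5 and Syt11 were lower. Syt2 gave 377, 357, 309, 409 and 343 in first-site retina and 96.0, 85.1, 85.8, 88.1 and 83.4 in cortex. At site 2 Syt2 gave 389, 424 and 402 in retina and 67.3, 89.5 and 63.9 in cortex. Both sites kept the tissues apart, with differences of 1.87 ± 0.09 (adjusted p = 5.0e-11, limma) and 2.27 ± 0.17 (adjusted p = 4.8e-06). Its other probe set was higher in retina as well. Syt1 was higher by 1.09 ± 0.14 at the first site. At site 2 it missed the threshold at 1.55 ± 0.57 (adjusted p = 0.063), where its cortex arrays read 1676, 269 and 1292, and it passed without any 1 of the cortex arrays, at 2.06, 0.69 and 1.90 without replicate 1, 2 and 3.

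Syt5 gave 207, 219.8, 184, 176 and 139.8 in first-site retina and 786, 895, 745, 707 and 844 in cortex. At site 2 Syt5 gave 317, 295 and 364 in retina and 1045, 746 and 1050.0 in cortex. All retina arrays lay below all cortex arrays. Syt5 differed by -2.02 ± 0.11 (adjusted p = 1.1e-10, limma) and -1.46 ± 0.21 (adjusted p = 4.3e-04). Syt4, a synaptotagmin that does not act as a fast calcium sensor, was lower in retina at both sites (-0.77 ± 0.12 and -1.35 ± 0.17). Syt11, of the same kind, was lower at the first site (-0.79 ± 0.11) and read 0.05 ± 0.33 at site 2, but -0.43, past the threshold, without cortex replicate 2. Syt3 was not called at the first site (-0.05 ± 0.16) and was higher at site 2 (0.53 ± 0.17, adjusted p = 0.035). That call was lost without retina replicate 1, retina replicate 2 or cortex replicate 3, and the second Syt3 probe set read -0.55 ± 0.16 at the first site, where it passed, and -0.48 ± 0.23 at site 2, where it did not.

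Neither complexin was called at both sites. Cplx1, the complexin of conventional synapses, was lower in retina at the first site (-0.41 ± 0.14, adjusted p = 0.026, limma), with overlapping arrays. It read 0.68 ± 0.34 at site 2 (adjusted p = 0.17). The first-site call was lost without retina replicate 2, retina replicate 4 or cortex replicate 5, and without centring. Cplx2 was not called at the first site (-0.28 ± 0.13, adjusted p = 0.082), though it passed without retina replicate 4 (-0.37). At site 2 it was lower in retina (-0.50 ± 0.16, adjusted p = 0.039), a call lost without any 1 of the site's arrays other than retina replicate 1 and cortex replicate 2.

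Among other vesicle proteins, Syp and Sncb were higher in retina at both sites and Syn2 was lower at the first. Syp, the vesicle membrane protein synaptophysin, gave 1365, 1286, 1222, 1341 and 1175 in first-site retina and 336, 285, 291, 341 and 328 in cortex. At site 2 Syp gave 1075, 1077 and 1639 in retina and 332, 217 and 318 in cortex. The tissues were apart at both sites, with differences of 1.97 ± 0.08 (adjusted p = 3.5e-12, limma) and 2.08 ± 0.24 (adjusted p = 8.0e-05). Sncb, the presynaptic protein beta-synuclein, gave 1737, 1662, 1619, 1696 and 1609 in first-site retina and 758, 838, 730.5, 713 and 771 in cortex. Its values at site 2 were 2521, 2299 and 4141 in retina and 887, 456 and 813 in cortex. No arrays overlapped, and retina replicate 3 of site 2 was the highest. Sncb was higher by 1.12 ± 0.06 (adjusted p = 2.8e-10) and 2.06 ± 0.31 (adjusted p = 6.2e-04). Syn2, which tethers vesicles to the cytoskeleton, was lower in retina at the first site (-0.80 ± 0.08) and not called at site 2 (-0.37 ± 0.25, adjusted p = 0.32). Without cortex replicate 2 of site 2 it passed there too, at -0.69.

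Rab3 proteins are small GTPases on secretory vesicles, and of the 2 forms on the list of 41 genes, Rab3d was called and Rab3a was not. Rab3d, the form best known from non-neuronal secretory cells, gave 18.9, 18.5, 16.2, 14.8 and 26.9 in first-site retina and 233, 294, 223, 225 and 272 in cortex. At site 2 Rab3d gave 48.1, 60.3 and 71.1 in retina and 309.8, 228 and 373 in cortex. All 5 first-site retina arrays were at or under the floor, so Rab3d was at least 10.3-fold lower in retina there, and 5.04-fold lower at site 2. The differences were -2.99 ± 0.14 (adjusted p = 1.8e-11, limma) and -2.08 ± 0.23 (adjusted p = 7.5e-05). Rab3a, the main form of synaptic vesicles, passed at neither site (-0.08 ± 0.29 and -0.15 ± 0.46). Its first-site cortex arrays ranged from 55.8 to 213, and a dimmer probe set was called higher in retina at the first site (0.71 ± 0.22) with 2 of 5 retina arrays and no cortex array above the floor. Rabac1, a Rab acceptor of the Golgi and vesicles, gave 3233, 3647, 3350.4, 3556 and 3104 in first-site retina and 2728, 3164, 2649, 2600.4 and 2746 in cortex. Site 2 gave 3884, 4706 and 4588 in retina and 3194, 3238 and 2932 in cortex. Its first-site arrays overlapped and those of site 2 did not, with small differences of 0.29 ± 0.07 (adjusted p = 0.0028) and 0.52 ± 0.15 (adjusted p = 0.024). The site 2 call was lost without retina replicate 2, retina replicate 3 or cortex replicate 3, and both calls were lost without centring.

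The active zone scaffolds bassoon and piccolo were not called at the first site. Bsn gave 33.2, 22.4, 49.7, 39.5 and 15.6 in first-site retina and 16.6, 23.2, 21.2, 23.5 and 33.6 in cortex. At site 2 Bsn gave 21.3, 14.6 and 13.7 in retina and 83.1, 47.7 and 82.5 in cortex. Apart from cortex at site 2, where all 3 arrays were above the floor, the values lay around the floor, above it on 4 of 5, 2 of 5 and 2 of 3 arrays. The difference was 0.24 ± 0.19 (adjusted p = 0.34, limma) at the first site and -1.48 ± 0.23 (adjusted p = 6.6e-04) at site 2. Bsn was the 1 gene of the 35 for which the tissue difference itself differed between sites, by -1.72 ± 0.31 (adjusted p = 0.0028), where 3.36% of all probe sets passed; without centring it did not pass. Pclo read -0.10 ± 0.13 and -0.58 ± 0.22 (adjusted p = 0.61 and 0.07), and it passed at site 2 without cortex replicate 3 (-0.72). That fit kept cortex replicate 2, which read above the other cortex arrays of the site for Pclo. The cortex mean there was 721 ± 325 (SD), so both site 2 values of Pclo carry that array.

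Both measured genes of vesicle retrieval were higher in retina at the first site. Dnm1, the GTPase dynamin 1 that pinches off vesicles, gave 4240.1, 5148, 4493, 5326 and 4685 in retina and 2156, 2365, 2078, 2011 and 2101 in cortex there. At site 2 Dnm1 gave 4029.9, 4599 and 4581 in retina and 1740.2, 4168 and 1784 in cortex. Its tissues were apart at the first site, and at site 2 cortex replicate 2 alone reached the retina range. The differences were 1.16 ± 0.07 (adjusted p = 9.4e-10, limma) and 0.93 ± 0.24 (adjusted p = 0.014). The site 2 call was lost without retina replicate 2, retina replicate 3 or cortex replicate 1, and the difference was 1.25 without cortex replicate 2. The second Dnm1 probe set was higher in retina by 0.86 ± 0.08 and 1.03 ± 0.14 (adjusted p = 6.0e-08 and 2.8e-04), with no overlap at either site. On that set cortex replicate 2 of site 2 read 2604, against 2175 and 1933 on the other cortex arrays. Snap91, the clathrin adaptor AP180, gave 1532, 1339, 1409, 1443 and 1365 in first-site retina and 1132, 928, 1142, 1351 and 1235 in cortex. Readings at site 2 were 1155, 1320.2 and 1258 in retina and 1119, 1319 and 906 in cortex. The arrays overlapped at both sites, and Snap91 passed at the first site (0.31 ± 0.09, adjusted p = 0.013) but not at site 2 (0.20 ± 0.14, adjusted p = 0.36). The first-site call was lost without centring and with centring on probe sets that passed at neither site.

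On the postsynaptic side, the largest difference was that of Nrgn, the neuronal protein neurogranin that binds calmodulin. It gave 32.2, 15.97, 19.1, 7.39 and 8.78 in first-site retina and 544, 765, 567, 659 and 647 in cortex. At site 2 Nrgn gave 36.5, 32.2 and 43.3 in retina and 599.7, 628 and 592 in cortex. Every cortex array was far above every retina array, and 1 of 5 first-site retina arrays exceeded the floor, as did all 3 at site 2. With values under the floor raised to it, Nrgn was 24.6-fold and 16.4-fold lower in retina, with differences of -4.41 ± 0.16 (adjusted p = 1.0e-12, limma) and -3.56 ± 0.16 (adjusted p = 1.5e-07).

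Of the CaMKII subunits, Camk2b was above the floor on every array and Camk2a on few. Camk2b, the beta subunit of the kinase, gave 877, 831, 757, 959 and 932 in first-site retina and 2749, 2409, 2129.9, 2280.4 and 2345 in cortex. The site 2 arrays read 812, 984 and 882 in retina and 1939, 3945 and 1800.0 in cortex. Retina was below cortex on every array, and cortex replicate 2 of site 2 was the highest of all. Camk2b differed by -1.43 ± 0.08 (adjusted p = 2.7e-10, limma) and -1.38 ± 0.22 (adjusted p = 7.2e-04). Camk2a, the alpha subunit, gave 8.66, 7.85, 7.60, 5.66 and 13.9 in first-site retina and 17.3, 16.8, 14.7, 18.02 and 19.8 in cortex. At site 2 Camk2a gave 9.74, 7.87 and 7.90 in retina and 8.34, 4.81 and 12.1 in cortex. Retina lay below cortex at the first site and within the cortex range at site 2. These values exceeded the floor on 2 first-site cortex arrays and on no other array, so no fold is given. It was called lower in retina at the first site (-0.50 ± 0.15, adjusted p = 0.009) and not at site 2 (-0.07 ± 0.36). The other Camk2a probe set was above the floor on 0 of 16 arrays.

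Ppp3ca, the calcineurin catalytic subunit alpha, gave 1147, 1181, 1149, 1366 and 1113 in first-site retina and 2123, 1776, 1847, 2370.1 and 2108 in cortex. On the site 2 arrays it read 636, 738 and 676 in retina and 1485, 3854 and 1317 in cortex. Retina was lower at both sites without overlap, and cortex replicate 2 of site 2 stood above its group. Ppp3ca differed by -0.76 ± 0.09 (adjusted p = 1.9e-06, limma) and -1.47 ± 0.28 (adjusted p = 0.0025). Nptx1, a secreted pentraxin that clusters AMPA receptors, was the 1 postsynaptic gene higher in retina. It gave 218, 193, 217, 169 and 205 in first-site retina and 72.2, 71.8, 106, 89.9 and 107 in cortex. At site 2 Nptx1 gave 256, 362 and 440.1 in retina and 113, 78.1 and 112 in cortex. The tissues did not overlap, and Nptx1 differed by 1.06 ± 0.12 (adjusted p = 2.0e-06) and 1.63 ± 0.21 (adjusted p = 2.2e-04).

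Of the scaffolds, Homer1, which links glutamate receptors to other postsynaptic proteins, gave 19.6, 21.5, 13.9, 18.7 and 12.6 in first-site retina and 36.1, 51.4, 45.1, 54.1 and 64.6 in cortex. At site 2 Homer1 gave 16.9, 22.7 and 29.6 in retina and 90.8, 19.9 and 65.7 in cortex. The tissues were apart at the first site with retina near the floor (above it on 1 of 5 arrays), and at site 2 cortex replicate 2 lay within the retina range. Homer1 differed by -1.04 ± 0.15 (adjusted p = 2.5e-05, limma) and -0.96 ± 0.31 (adjusted p = 0.038). The site 2 call was lost without any 1 array of that site except cortex replicate 2, without which the difference was -1.28. The second Homer1 probe set was at or under the floor on 15 of 16 arrays. Dlg4, the density scaffold PSD-95, was not called at the first site (0.08 ± 0.10) and was lower in retina at site 2 (-0.58 ± 0.18, adjusted p = 0.034). Leaving out retina replicate 2, retina replicate 3, cortex replicate 1 or cortex replicate 3 ended that call.

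**Figure D4:**
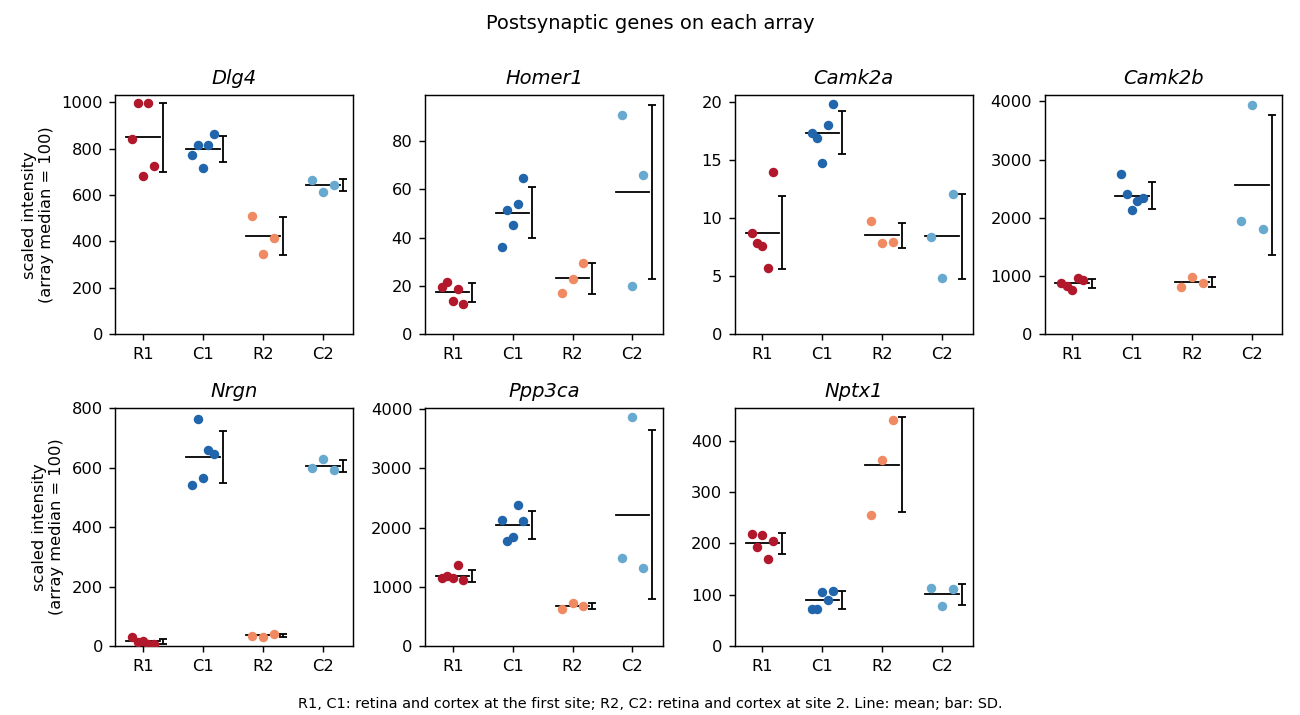
Scaled intensity (vertical axis, array median 100, from 0) of the postsynaptic genes on each array, by tissue and site, with 1 point for each array, a line for the group mean and a bar for the SD. Nrgn and Camk2b lie lower in retina and Nptx1 higher, and Camk2a lies near background in all groups, at no more than 19.8.

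Other genes of the synapse were read from a wider list of 150, of which 77 were measured. At the first site 52 of them (67.5%) passed, 22 higher and 30 lower in retina, with a median of -0.14. At site 2 40 (51.9%) passed, 21 higher and 19 lower, with a median of 0.0048. Of all probe sets 47.1% passed at the first site and 32.5% at site 2. Of those above the median signal 68.1% and 47.6% passed. Of the 21 other postsynaptic genes, the first site called 5 higher and 11 lower in retina, and site 2 called 5 and 7. Of the 56 other presynaptic genes, the first site called 17 higher and 19 lower, and site 2 called 16 and 12. The largest differences toward retina were those of Sncg (2.29 ± 0.12), a synuclein of ganglion cells, Ppp3cc (2.24 ± 0.09), the gamma form of the calcineurin catalytic subunit, and Stxbp3 (2.18 ± 0.11), a syntaxin-binding protein. The other Sncg probe set read 4.64 ± 0.12. The largest toward cortex were those of Rab3b (-3.68 ± 0.13), another Rab3 form, Dbn1 (-3.66 ± 0.15), which binds actin in dendritic spines and growing processes, and Syt17 (-2.03 ± 0.20). Rab3b and Syt17 were at or under the floor in first-site retina, so they were at least 12.3-fold and at least 2.64-fold lower there.

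Several families held members of both directions, among them the calcineurin forms and the CaMKII subunits. Ppp3cb, Camk2d, Ctbp2 and Unc13b were chosen after their values were seen. Of these, Ctbp2 and Unc13b are given on their own, with no family member of the other direction. The calcineurin forms read -0.76 ± 0.09 for Ppp3ca, -1.01 ± 0.08 for Ppp3cb and 2.24 ± 0.09 for Ppp3cc at the first site, and -1.47 ± 0.28, -0.44 ± 0.27 and 2.68 ± 0.19 at site 2. Ppp3cb did not pass at site 2 (adjusted p = 0.27, limma) but did without cortex replicate 2 (-0.78). The delta subunit of CaMKII, Camk2d, was higher in retina by 1.93 ± 0.14 and 2.38 ± 0.22, opposite to Camk2b. Ctbp2, the gene that also encodes the ribbon protein RIBEYE, was higher by 1.99 ± 0.09 and 1.46 ± 0.30. Unc13b, a vesicle priming factor, was higher by 1.81 ± 0.10 and 2.01 ± 0.17.

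The across-site comparison asks how far one RNA pool gives the same values in both settings. Of the 35 genes, 21 passed at both sites, 13 higher and 8 lower in retina at each, and none was called in opposite directions. The sign was shared by 30 of 35. Within retina RNA, 18 of the 35 genes differed between sites, 13 higher and 5 lower at site 2, where 35.7% of all probe sets differed (23.2% higher, 12.5% lower). In cortex RNA 4 differed, where 16.7% of all probe sets did, and 17 differed without cortex replicate 2 of site 2. Over all probe sets the cortex count was 2076, and it ran from 1480 to 4976 with single arrays left out. The rise from 4 to 17 is therefore not shown to be particular to these genes. The direct comparison of values between sites depends on cortex replicate 2 of site 2 and on the centring of the arrays.

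Cplx2 showed the largest fall between sites, in both RNA pools. It gave 502, 678, 499, 789 and 599 in retina at the first site and 186, 156 and 139 at site 2. In cortex it gave 828, 696, 639, 928 and 655 at the first site and 233, 229 and 243 at site 2. The gene was chosen for this after its values were seen. All site 2 arrays lay below all first-site arrays, with site 2 minus first-site differences of -1.83 ± 0.15 in retina (adjusted p = 3.5e-08, limma) and -1.61 ± 0.15 in cortex (adjusted p = 7.2e-07). Syt4 was also lower at site 2 in retina (-1.03 ± 0.15, adjusted p = 3.1e-05). Its cortex difference of -0.45 ± 0.15 (adjusted p = 0.044) lost its call under 12 of 19 alternatives, among them no centring and the omission of cortex replicate 1, 3, 4 or 5 of the first site or cortex replicate 1 or 3 of site 2. The largest rise in retina was that of Stx3 (1.61 ± 0.22, adjusted p = 1.8e-05), which in cortex read 0.48 ± 0.22 (adjusted p = 0.15) and 0.69, past the threshold, without cortex replicate 2 of site 2. The Stx3 probe sets differed in this comparison, and the 2 plain sets read 0.99 ± 0.24 (adjusted p = 0.0031) and -0.16 ± 0.18 (adjusted p = 0.56). In cortex Bsn (1.19 ± 0.22) and Snap25 (0.65 ± 0.12) were higher at site 2.

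Cortex replicate 2 of site 2 departed from its group in both directions. It read above the other cortex arrays of that site for the representing probe set of Dnm1 (4168 against 1740.2 and 1784), Camk2b, Ppp3ca, Pclo, Stx4a and Snap25. It read below them for Syt1 (269 against 1676 and 1292), Nsf, Stx1a, Stx3, Syt11 and Cplx1. Site 2 calls of these genes carry that spread.

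**Figure D5:**
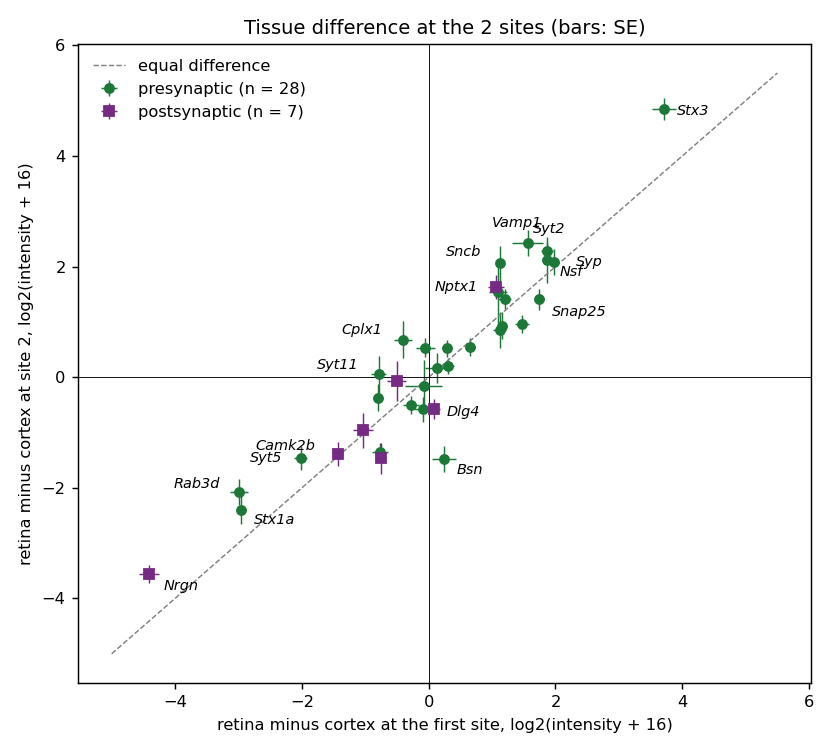
Retina minus cortex difference of each of the 35 synaptic genes at the first site (horizontal axis) and at site 2 (vertical axis), on the log2(intensity + 16) scale, with standard errors and a dashed line of equal difference. Of the 35 points 30 share their sign, and Bsn lies farthest below the line, at 0.24 ± 0.19 and -1.48 ± 0.23.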

How the data were processed

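The deposited table holds 1 linear intensity for each probe set on each array, which the authors had made from the single probes by an algorithm not given in the sources used here. Per the labels, the target was biotin-labelled cRNA from roughly 10 µg of total RNA. Of 12488 probe sets, 66 controls were left out. Gene symbols came from the platform annotation, updated through RefSeq. Values became log2(intensity + 16), centred on the median of each array, with no filter on low values. Tests used limma 3.58.1 under R 4.3.3 (lmFit, eBayes with an intensity trend, two-sided moderated tests, Benjamini-Hochberg over 12422 probe sets, threshold 0.05), each site alone for the tissues and all 16 arrays in a model of 4 group means for the comparisons between sites. The procedure was tested on simulated arrays. Folds are ratios of geometric means with values under the floor raised to it, written "at least" where a whole group was at or under it. The number of arrays limits the precision.

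Genes given with every array are the 2 of each role with the largest first-site difference past the threshold, each postsynaptic gene past it and each gene past the interaction threshold; of the wider list, the 3 largest in each direction. Cplx2, also given with every array, was chosen after its values were seen. Genes, lists, the floor and this rule were chosen with earlier results of these data known. Replicate numbers are shared between tissues, but deviations of same-numbered arrays correlated at -0.19 to 0.08, so they were not taken as pairs. Alternatives were other pseudocounts (1 and 50), scalings, probe set choices and variance models, the replicate block, and leaving out each array.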

Additional observations from a re-analysis of the deposited data

Results flagged for a closer look

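The tissue difference itself differed between sites for 1 synaptic gene, Bsn, by -1.72 (site 2 minus first site, log2 scale, adjusted p = 0.0028, limma), and it did so under every alternative tried except no centring. The 3 probe sets of Stx3 differed: the set representing the gene read 1.13 (adjusted p = 0.051), 1 plain set passed at 1.46 (adjusted p = 0.02), and the other plain set read -0.47 (adjusted p = 0.34), with the opposite sign and no call. Of the wider synaptic list, 5 genes passed and are named after their values were seen: Syt9 at 1.47, Ap2a1 at 1.07, Doc2b at 1.01, Dlg3 at 0.66 and Cask at -0.49. Dlg3 lost its call under 17 of 27 alternatives, Cask under 8 and Ap2a1 under 5, while Syt9 (26 alternatives) and Doc2b (27 alternatives) each lost it under 2. In the groups of 5 arrays, 3 of 100 sets of values had an array far from the rest, where chance gives about 1 in 20. Ap2a1 stood out on first-site retina replicate 5 (137 against 166 to 181, gap 0.74). Ctbp2 did so on the same array (1635 against 1988 to 2254, gap 0.753). Camk2d stood out on first-site cortex replicate 4 (42.5 against 27.7 to 31.0, gap 0.845). The bracketed intensities are scaled, but each gap is a share of the range on the array-centred log2 scale of the tests. On the scaled intensities these shares are smaller.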

How the results depend on the processing

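Over the named genes, 4353 of 4638 alternative values kept their side of the threshold, and 190 lost and 95 gained a call. Of the values called in the reported fit, 0 changed sign. Direction was not compared for values without a call there. The first-site count of synaptic genes stayed at 27 to 28 with 1 array left out, and the site 2 count ran from 18 to 29. Over all probe sets these counts ran from 5576 to 5936 and from 3062 to 5946. The interaction count, 1 in the reported fit, was 2 with a pseudocount of 1 or of 50, with scaling to 100, with bright probe sets alone and with gene means, 4 with quantile normalization, 0 without centring and 1 to 5 with 1 array left out, moving for retina replicates 1 and 5 and cortex replicate 4 of the first site and for retina replicate 1 and every cortex replicate of site 2. Without centring, site 2 counts fell to 8 synaptic genes and 9 of the wider list, and differences between sites to 1 gene in retina and 0 in cortex. All 12422 probe sets also lost calls, with 781 in place of 4043 at site 2, so the drop is not particular to these genes. The cortex count between sites was 10 with quantile normalization and 3 to 17 with 1 array left out. With 1 array left out, that count over all probe sets ran from 1480 to 4976. The postsynaptic median was -0.97 at the first site with a pseudocount of 1 and -1.04 without Ppp3ca and Nptx1. At site 2 it was -0.67 with a pseudocount of 50, -0.69 with quantile normalization, -1.38 with bright probe sets alone, -0.58 with gene means and -1.10 to -0.70 with 1 array left out. The presynaptic median at the first site was 0.48 with bright probe sets alone. The causes were not tested. Centring on probe sets that passed at neither site shifted the median of all probe sets by site to 0.23 in retina and 0.15 in cortex. It raised the share of higher calls between sites from 65.0% to 81.2% in retina and from 61.7% to 79.3% in cortex, where quantile normalization gave 53.2% and 49.2% and no centring gave 39.0% in retina. For the interaction that share was 61.5%, and 48.3% with quantile normalization, 38.2% without centring and 42.6% with centring on those probe sets. Same-numbered arrays did not deviate together, and no pairing was assumed. With the replicate number as a block, 29 synaptic genes passed at each site, 6 for the interaction, 12 between sites in retina and 1 in cortex. Levels near the floor limit the results for Bsn, Homer1, Camk2a, Nrgn in retina, Rab3d in first-site retina, and Stx3 and Vamp1 in cortex.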
